A study of Mus musculus with 8 samples.

Results

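The genes of the constitutive proteasome were followed in RNA sequencing libraries made from mouse hepatic stellate cells (liver cells that store vitamin A and become matrix-producing myofibroblasts on activation). They were chosen by name alone: every gene of the deposited table called Psma, Psmb, Psmc, Psmd, Psme, Psmf or Psmg with a number, leaving out the immunoproteasome genes Psmb8, Psmb9 and Psmb10. This gave 44 of the 14162 genes. The 8 libraries fall into 4 groups of 2, the pair in each called a and b. They are cells labelled quiescent, cells labelled activated, and activated cells given either miR-15a or a control microRNA. No group carries a stated genetic change. The protocols name C57BL/6J and SCID mice without tying either to a library, and give no age, no dose or time of the microRNAs, and no way in which the cells were activated. They do not say whether libraries a and b came from separate animals or cultures, so every p-value below covers no more than the spread of these libraries, which could be technical. The stated aim of the series was to predict miR-15a targets.

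The proteasome is the protease that degrades ubiquitin-tagged proteins. Its barrel, the 20S core particle, stacks rings of alpha subunits, which form the gate, around rings of beta subunits, of which PSMB5, PSMB6 and PSMB7 carry the chymotrypsin-like, caspase-like and trypsin-like active sites. The 19S regulatory particle caps the barrel: a base with ATPases (Psmc genes) unfolds the substrate, receptors bind the ubiquitin chain, and a lid removes it. Assembly chaperones build both particles, other activators (Psme genes) can replace the 19S particle, and PSMF1 inhibits the core. Cells short of proteasome activity raise its subunit genes together through the transcription factor NRF1 (Nfe2l1), which acts at antioxidant response elements in their promoters.

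The rule took in more than constitutive subunits. By role the 44 genes were 8 of the alpha ring, 3 catalytic and 4 other genes of the beta ring, 6 ATPases, 3 other genes of the 19S base, 8 of the lid, 3 chaperones of the 19S base, 4 chaperones of the 20S core, 4 alternative activators and 1 inhibitor. Psma8 encodes the form of PSMA7 found in testis, and Psme1 and Psme2 are induced by interferon, as the excluded genes are. The 15 alpha and beta genes are called the 20S core below, and the 17 base and lid genes the 19S particle. Exons of 11 of the 44 genes overlap another gene, and 13 share over 5% of their windows of 80 bases, the read length, with one, so that the authors' counting could have split or dropped reads there; Psma3 (21.2%), Psmg3 (19.8%), Psma4 (14.5%), Psmd2 (13.4%), Psmd11 (11.7%), Psmd1 (7.45%) and Psmc1 (7.21%) are among these, and the others are named with their values.

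Sequences that miR-15a could pair with were sought first, since targets were the purpose of the series. The microRNA lies at chr14:61632075-61632096 on the minus strand of GRCm38.p6 and is shown from RefSeq with its seed, positions 2 to 8 from the 5′ end, in capitals.
mmu-miR-15a-5p: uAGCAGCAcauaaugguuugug
The complement of the seed, TGCTGCT, was sought in 3′ UTRs, taking for a gene the longest that GENCODE M21 (GRCm38) annotates. It was found in 5 of the 44 proteasome genes (11.4%), against 23.9% of the 12534 genes of the table with an annotated 3′ UTR. The proteasome 3′ UTRs were short, with a median of 295 bases against 1166. With only positions 2 to 7 of the microRNA required, 9 of the 44 (20.5%) and 43.98% of all genes had a match, and with any annotated 3′ UTR taken in place of the longest, 5 of the 44 again. The matches lie in the last exon of their transcripts. For Psmb1 and Psmd13 that transcript is not the one used for length and shared windows below, and its level in these cells was not tested. Of the 7 matches 6 are printed with the matching bases in capitals, so that the letters around each can be read.
Psmb1 at chr17:15477231-15477237 (minus): gaTGCTGCTgaggtcttctg
Psmb1 at chr17:15476898-15476904 (minus): gccttgctttcTGCTGCTgtgtgttcatc
Psmb1 at chr17:15476651-15476657 (minus): ccctgaaggaaTGCTGCTtactagcttgt
Psmc1 at chr12:100123320-100123326 (plus): tcattgtgccgTGCTGCTctctactccca
Psmd13 at chr7:140897924-140897930 (plus): aatcctgaaatTGCTGCTccagcagacgt
Psme3 at chr11:101322878-101322884 (plus): ggtgcagaggcTGCTGCTcctcgctgtgc
The values of the genes printed here are given below, beside the class of each.

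Promoters were examined because proteasome genes are known to be regulated together. RefSeq windows from 250 bases before to 50 after the start (GRCm38.p6) were found for 36 of the 44 genes, and not for Psma8, Psmb1, Psmb2, Psmb7, Psmc3, Psmd3, Psmd7 and Psmg2. The core of the antioxidant response element, TGACNNNGC, was sought on both strands, and a gene counted if any of its windows matched. It was found in 6 of the 36 genes (16.7%), against 16.3% of the 10539 genes of the table with a window. The CCAAT box was found in 12 (33.3%, against 43.6%) and GGAAGT, a core letter run of ETS family sites, in 20 (55.6%, against 31.6%). The stretches before the start are shown for 3 genes with an element, 2 of them catalytic subunits and 1 the gene that rose most on activation, with the element in capitals.
Psmb5 (chr14:54618023-54618245, minus): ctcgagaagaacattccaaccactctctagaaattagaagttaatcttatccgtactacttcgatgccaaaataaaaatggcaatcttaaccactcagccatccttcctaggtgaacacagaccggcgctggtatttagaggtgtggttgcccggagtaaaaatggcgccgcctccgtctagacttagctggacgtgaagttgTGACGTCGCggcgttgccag
Psmb6 (chr11:70525107-70525356, plus): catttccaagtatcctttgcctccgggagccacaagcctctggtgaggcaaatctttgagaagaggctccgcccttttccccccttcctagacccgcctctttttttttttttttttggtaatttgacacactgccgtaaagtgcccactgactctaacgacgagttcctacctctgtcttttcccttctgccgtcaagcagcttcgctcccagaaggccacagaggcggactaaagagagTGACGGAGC
Psmc6 (chr14:45329574-45329787, plus): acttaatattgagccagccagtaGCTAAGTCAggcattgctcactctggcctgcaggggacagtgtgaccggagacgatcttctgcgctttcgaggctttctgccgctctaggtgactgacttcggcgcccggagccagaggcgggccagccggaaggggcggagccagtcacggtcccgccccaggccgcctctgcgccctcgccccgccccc
The element ends 38 bases before the RefSeq start in Psmb5, at the start in Psmb6 and 218 bases before it in Psmc6, where it lies on the other strand. The other genes with an element were Psmd9, Psmd12 and Psme4. A match is a run of letters, not a measured binding site.

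Values are the authors' normalized scores, on one shared scale in all 8 libraries, so sequencing depth is unknown and no counting interval can be given. Library totals lay between 10193036 and 10234768. Of 12 markers of quiescent stellate cells 10 were measured (Lrat and Lhx2 were not), of which 6 fell and 4 rose on activation. Of 10 markers of activated stellate cells 9 rose. Pdgfrb, which rose, and Des, which fell, are on both lists and are counted in each. The quiescent libraries also held high levels of other liver cells' genes: 12 endothelial markers summed to 228823 and 159743, against 893 and 696 in activated cells, 9839 and 9709 with miR-15a and 1280 and 1532 with the control microRNA. Sums of the 10 macrophage markers measured, of 12, were 129091 and 149334, then 1004 and 817, 10036 and 10959, and 1178 and 1171 (Adgre1 and Timd4 were not measured), and none of the measured markers was at 0 in both libraries of a group. All 10 hepatocyte markers measured, of 12, fell on activation, and none was called with miR-15a against the control. Their sums were 10893 and 8970, then 223 and 291, 959 and 1433, and 86 and 993. The control libraries thus lay far apart, and the median log2 fold change with miR-15a against the control was 1.21. The groups also differ in sex-linked genes: Xist was at 8724 in each quiescent library, at 169 and 21 in activated cells and between 3373 and 5027 in the other 4 libraries, and Ddx3y, on the Y chromosome, was at 44 and 40, at 2606 and 2570, and between 1006 and 1282. In bulk RNA, fewer cells of a type and less RNA per cell cannot be told apart. The part of other cell types and of differing animals in the proteasome values was not tested.

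Below, values stand in pairs for libraries a and b, and where the groups are not named they follow in the order quiescent, activated, miR-15a and control. All 44 genes passed the filter on low values, with deposited values from 24 to 4266. Together they made up 0.271% and 0.276% of the library total in quiescent cells, 0.432% and 0.411% in activated cells, 0.489% and 0.504% with miR-15a and 0.417% and 0.405% with the control microRNA. The groups did not overlap between quiescent cells and any other, or between miR-15a and any other, while the activated and control libraries overlapped. The 2 particles contributed differently. Summed values of the 20S core were 11656 and 11844 in quiescent cells, 16376 and 14908 in activated cells, 21824 and 21684 with miR-15a and 16045 and 15623 with the control. The 19S sums were 11607 and 11884, 22611 and 22028, 22827 and 24481, and 21321 and 20611. Both sums thus stood highest with miR-15a. The 20S sums there lay far above those of activated cells. For the 19S particle miR-15a library a lay close to them, at 22827 against 22611 and 22028.

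**Figure D1:**
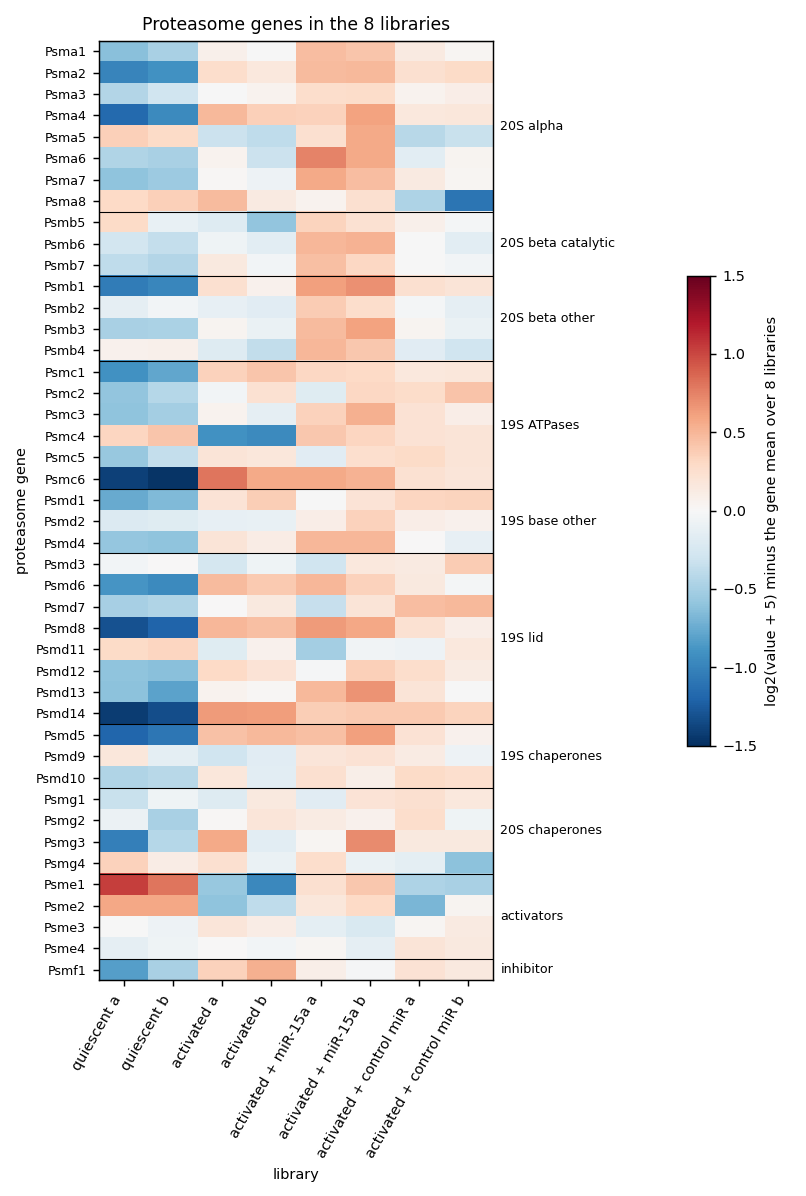
Each row is 1 of the 44 proteasome genes, grouped by role, and each column 1 of the 8 libraries; colour is log2(value + 5) minus the gene's mean over the libraries, red above and blue below. The quiescent columns are blue for most subunits and red for Psme1, Psme2, Psma5, Psmd11 and a few others, Psmc4 is blue in the activated columns alone, and most 20S rows are reddest with miR-15a.

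Activated cells were set against quiescent cells to describe activation. The 19S ATPase gene Psmc6, the lid genes Psmd14 and Psmd8, the chaperone gene Psmd5 and the alpha ring gene Psma4 rose most, by 4.34-fold to 2.78-fold, while the interferon-inducible activator genes Psme1 and Psme2 and the ATPase gene Psmc4 were 3.23-fold, 2.10-fold and 2.46-fold lower. By limma on log2(value + 5), with Benjamini-Hochberg adjustment over the 13150 genes tested, 28 proteasome genes rose, 6 fell and 10 were not called. The background was wide: 45.4% of all genes tested were called higher and 34.1% lower, against 63.6% and 13.6% of the proteasome genes. Their median log2 fold change was 0.46, and that of all genes 0.21. Another scaling of the libraries, by median ratios, moved the median of all genes from 0.21 to -0.06 and left 18 proteasome genes higher and 12 lower. Over all genes this scaling called 4749 higher and 5418 lower, the background for the counts by role under it below. The proteasome median exceeded that of all genes by 0.25 with the deposited scale and by 0.24 with the other. Psmb6 and Psme3, small increases on the deposited scale, turned to -0.07 and -0.09. Calls for 18 of the 28 and 4 of the 6 were kept under every alternative run, among them a limit of 0.5 on the log2 fold change, which alone ended the call of Psmb4.

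Cells given miR-15a were set against the cells given the control microRNA, the comparison that bears on the microRNA itself. The increases were led by the core genes Psma8, Psma5, Psma6 and Psmb4 and the activator gene Psme1, from 1.89-fold to 1.61-fold, and the decreases by the lid gene Psmd7, which was 1.46-fold lower. With miR-15a, compared with the control microRNA, 19 proteasome genes rose, 3 fell and 22 were not called, a share of 43.2% higher and 6.82% lower. Over all genes tested 14.4% were called higher and 15.4% lower. The median log2 fold change of the 44 genes was 0.27, and that of all genes -0.07. Of the increases, 7 were kept under every alternative: Psma5, Psma6, Psmb3, Psmb4, Psmb6, Psmd4 and Psme1. A further 4 (Psma7, Psmb1, Psmb2 and Psmd8) were lost under the fold limit alone. None of the 3 decreases (Psmd7, Psme3 and Psme4) was. This comparison shares no library with the activation comparison, so the fold changes of each gene could be set side by side. Of the 28 genes that rose on activation, 14 were higher with miR-15a than with the control, 2 were lower (Psmd7 and Psme3) and 12 were not called. Of the 6 that fell, 3 were higher with miR-15a than with the control (Psma5, Psmb4 and Psme1). Such pairs of calls were not counted over all genes. Among the 14, Psmc6, Psmd5, Psmd6 and Psmd8 were not called against untreated activated cells (-0.14, 0.07, -0.01 and 0.13). Their control libraries were called lower than those cells. The others of the 14 were called higher against untreated activated cells too. Across the 44 genes the log2 fold changes of the pair of comparisons had a Pearson correlation of -0.16, and across all 13150 genes of -0.60; genes are not independent replicates, and no test was made.

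Against untreated activated cells, miR-15a cells had 20 proteasome genes higher and 2 lower, with a background of 16.8% higher and 21.6% lower. The median was 0.16, against -0.10 for all genes. The count of increases fell to 12 when activated library b was left out. The control microRNA by itself was compared with untreated activated cells in the same way: 1 gene, Psmc4, was higher and 6 were lower (Psma8, Psmc6, Psmd5, Psmd6, Psmd8 and Psmd14), with a background of 7.18% higher and 6.61% lower. The median was 0.05. The single increase became 3 without either miR-15a library and 2 without control library a. Leaving out 1 library took the 6 decreases to as few as 0 (without control library b), to 1 without either activated library and to 3 without either quiescent library. The comparisons with activated cells share those libraries with each other and with activation, so they are not independent of them.

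**Figure D2:**
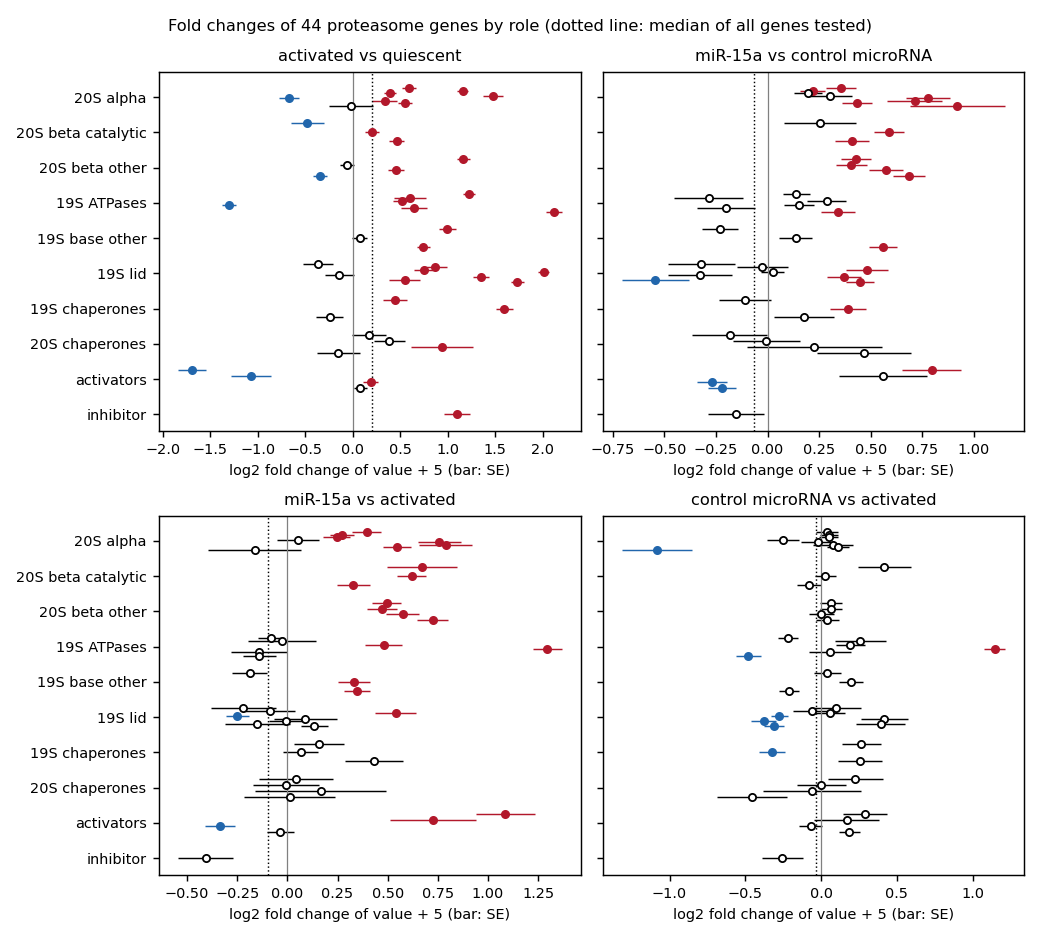
Points are log2 fold changes of value + 5 with their SE for the 44 proteasome genes, arranged by role in 4 panels, 1 for each comparison; red points were called higher, blue lower and open points not called, and the dotted line is the median of all genes tested. All 20S points lie right of 0 for miR-15a against the control, between 0.20 and 0.92, while the 19S points lie between -0.54 and 0.56.

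In the 20S core, 10 of 15 genes rose and 3 fell on activation, and 12 rose and none fell with miR-15a against the control microRNA. All 15 were above 0 in the latter comparison, as were 5608 of the 13150 genes tested. The median log2 fold change of the 15 was 0.43. The groups did not overlap for any of the 15, but this was not counted over all genes. The 15 kept their direction under the other scaling, where 14 were called higher. Over all genes 2311 were called higher and 1585 lower there. Against untreated activated cells 13 of the 15 rose with miR-15a and none fell, and in cells with the control microRNA 1 (Psma8) fell and none rose. On activation the other scaling left 5 of the 15 higher and 4 lower.

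The 3 catalytic subunits did not move alike on activation. Psmb5, the chymotrypsin-like subunit, was at 240 and 181 in quiescent cells, 171 and 128 in activated cells, 248 and 230 with miR-15a and 207 and 192 with the control. Psmb6, the caspase-like subunit, was at 940 and 885, 1086 and 1019, 1602 and 1634, and 1130 and 1019. Psmb7, the trypsin-like subunit, was at 1130 and 1086, 1634 and 1430, 2022 and 1824, and 1461 and 1430. All 3 were highest with miR-15a by group mean, and the activated libraries were lowest for Psmb5 and above the quiescent ones for the others. On activation Psmb5 fell by 0.48 ± 0.17 (SE of the log2 fold change, adjusted p = 0.034), Psmb7 rose by 0.46 ± 0.08 (adjusted p = 0.0012) and Psmb6 by 0.20 ± 0.07 (adjusted p = 0.031). The fall of Psmb5 was not called without quiescent library a, activated library b or either miR-15a library (adjusted p up to 0.21), and the rise of Psmb6 not without quiescent library b or activated library a (up to 0.16). Under the other scaling neither increase was called, with Psmb7 at 0.18 (adjusted p = 0.069) and Psmb6 at -0.07 (adjusted p = 0.35), and Psmb5 was still called lower. With miR-15a against the control, Psmb6 rose by 0.59 ± 0.07 (adjusted p = 0.0011) and Psmb7 by 0.41 ± 0.08 (adjusted p = 0.0096, and 0.053 without miR-15a library a), while Psmb5 differed by 0.25 ± 0.17 (adjusted p = 0.31). Of the 80-base windows of the Psmb5 transcript 36.6% also occur in other annotated genes (Gm3375 and Mir686), and of those of Psmb7 23.3% (Nek6), so reads could be split there and these values are less certain.

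Each catalytic subunit has an interferon-inducible counterpart that can take its place in the immunoproteasome, and these were far more uneven. Psmb8, the counterpart of Psmb5, was at 1010 and 1168 in quiescent cells, 5 and 9 in activated cells, 266 and 332 with miR-15a and 21 and 7 with the control. Psmb9, that of Psmb6, was at 236 and 235, 1 and 2, 28 and 34, and 2 and 2. Psmb10, that of Psmb7, was at 842 and 912, 144 and 132, 412 and 392, and 171 and 132. All 3 fell on activation. With miR-15a they rose, by 4.10, 2.36 and 1.39 on the log2 scale against the control. Shares of each pair were taken after dividing each value by the length of 1 transcript of its gene. In quiescent cells the inducible gene took 69.9% and 78.1% (Psmb8), 12.9% and 13.5% (Psmb9) and 39.7% and 42.6% (Psmb10). The shares with miR-15a were 37.2% and 44.4%, 1.02% and 1.21%, and 15.3% and 16.0%, in the same order. In activated cells the highest share was 7.55%, for Psmb10. Of 18 interferon response genes 17 were measured; on activation all 17 fell, and all 17 rose with miR-15a against the control. So did the 10 macrophage markers, while of the 12 endothelial markers 11 rose and 1 fell. Their part in the immunoproteasome values was not tested.

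**Figure D3:**
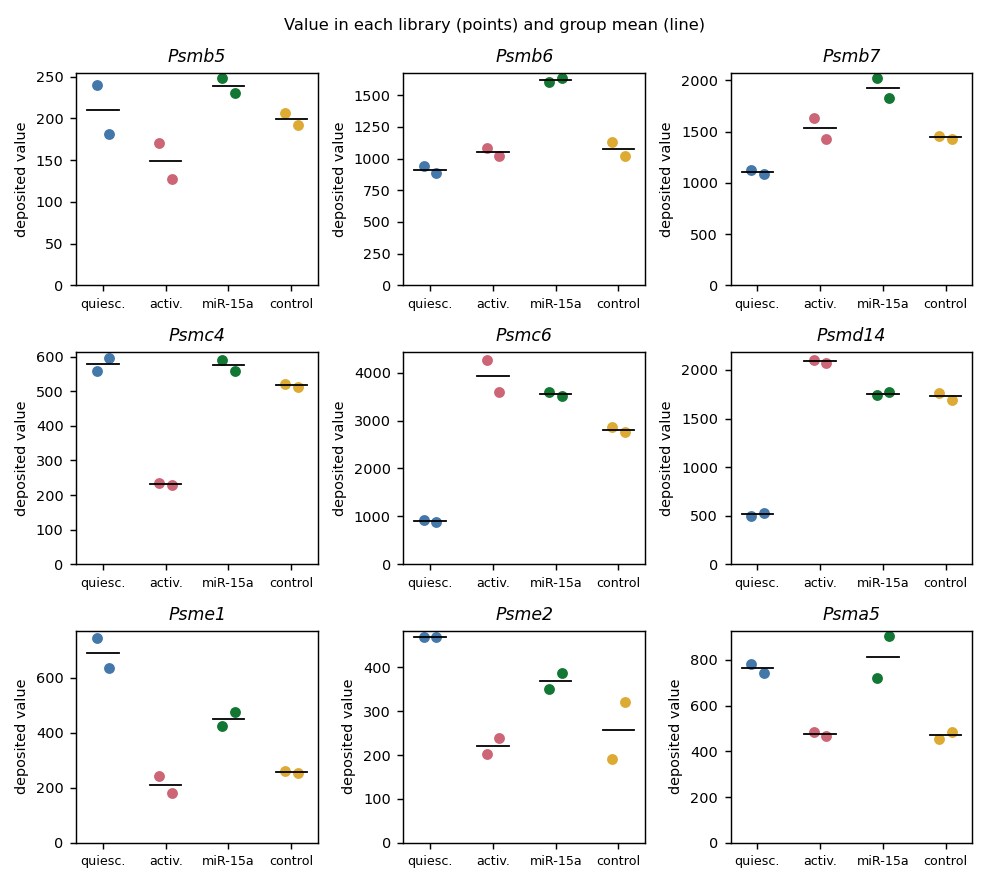
Each panel shows the deposited value of 1 gene in the 8 libraries, with points for libraries and a line for the group mean, in quiescent cells, activated cells and activated cells with miR-15a or the control microRNA. Psmc4 is low in the 2 activated libraries alone (235 and 228), Psmc6 and Psmd14 are low in the quiescent ones alone, and Psme1 is highest in quiescent cells (744 and 634).

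Of the other beta subunits, Psmb1 rose by 1.16 on activation and Psmb3 by 0.45, Psmb4 fell by 0.34, and Psmb2 was not called at -0.06. The other scaling left 1 of the 4 higher (Psmb1) and 2 lower (Psmb4 and Psmb2, the latter at -0.34), and Psmb3 was not called at 0.18 (adjusted p = 0.080). With miR-15a all 4 rose against the control, by 0.43, 0.57, 0.68 and 0.41. Psmb4, whose product takes part in the dimerization step of core assembly, was the highest of them, at 2302 and 2330 in quiescent cells, 1936 and 1716 in activated cells, 3112 and 2922 with miR-15a and 1958 and 1794 with the control. Psmb1 carries 3 of the seed matches printed above, and was at 844 and 881, 2062 and 1824, 2670 and 2801, and 2062 and 2002. Its libraries with miR-15a were thus its highest. Windows shared with other genes made up 29.3% of Psmb3.

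In the alpha ring 6 of 8 genes rose on activation and 1 fell, and the other scaling left 4 higher and 1 lower (Psma3 and Psma6 were lost). Psma4 rose by 1.48 and Psma2 by 1.16, and Psma1, Psma3, Psma6 and Psma7 by 0.34 to 0.60. Psma5 went the other way, at 784 and 743 in quiescent cells, 486 and 468 in activated cells, 722 and 906 with miR-15a and 456 and 483 with the control. The quiescent and miR-15a libraries overlapped and stood above the other 4. It fell by 0.67 ± 0.11 on activation (adjusted p = 0.00068) and rose by 0.78 ± 0.11 with miR-15a against the control (adjusted p = 0.0019); 37.1% of its windows are shared with other genes. Psma6 was at 718 and 700, 1023 and 784, 1647 and 1461, and 880 and 1014, and rose by 0.71 ± 0.13 with miR-15a (adjusted p = 0.0071). Its libraries with miR-15a lay above all others, and its rise of 0.34 on activation was not called without either quiescent library, activated library a or either miR-15a library (adjusted p up to 0.30). The remaining increases with miR-15a were Psma1 at 0.36, Psma2 at 0.22 and Psma7 at 0.43, while Psma3 (0.20) and Psma4 (0.30) had adjusted p-values of 0.060 and 0.068.

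Psma8, on chromosome 18, was the lowest 20S gene and stood apart from the ring it belongs to. It was at 71 and 74 in quiescent cells, 81 and 63 in activated cells, 59 and 68 with miR-15a and 40 and 24 with the control. The control libraries were lowest and the other 3 groups overlapped. The fold change of 0.92 ± 0.23 between miR-15a and the control (adjusted p = 0.023) was the highest of the 44, and the control against activated cells gave -1.08 ± 0.23 (adjusted p = 0.027). Both calls were lost without control library b (adjusted p = 0.096 and 0.098), the former also without either miR-15a library and the latter without either quiescent or activated library.

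Levels were compared between 20S genes per 1000 bases of the transcript with the longest coding sequence, leaving out Psma8. Psmb4 was first of the 14 in every group, at 1958, 1544, 2550 and 1586 in that order of groups. Psmb5 was last in every group, at 234, 166, 266 and 222. The highest lay 7.15 to 9.59 times above the lowest. Neighbours in the order were often not separable: in 4 to 6 of the 13 neighbouring pairs of a group the libraries overlapped. With the length of all annotated exons in place of 1 transcript, Psmb4 stayed first in every group and Psmb5 last in the 3 activated groups, but Psmb5 was number 10 in quiescent cells.

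**Figure D4:**
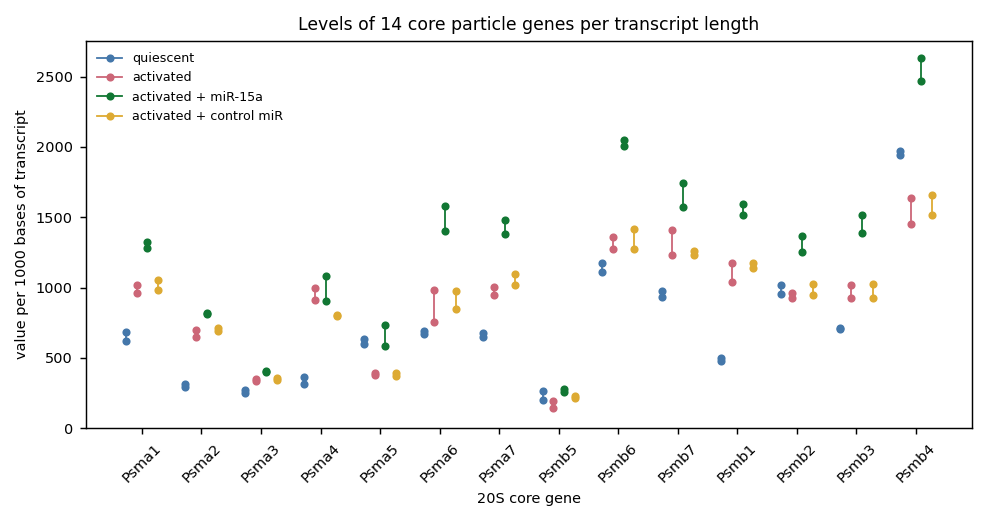
Points are the value per 1000 bases of transcript of 14 genes of the 20S core in each library, joined within a group and coloured by group. The pair of libraries with miR-15a lies highest in most genes, Psmb4 is the highest gene in each group and Psmb5 the lowest.

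In the 19S particle 13 of 17 genes rose on activation and 1 fell, with a median log2 fold change of 0.75. The other scaling left 11 higher and 4 lower. With miR-15a against the control 5 rose and 1 fell, with a median of 0.14 and 10 of 17 above 0. The groups did not overlap for all 17 on activation and for 10 of 17 with miR-15a. Such overlap was not counted over all genes, so no background share can be given. Against untreated activated cells 5 rose and 1 fell with miR-15a, whereas 1 rose and 4 fell with the control microRNA. No test compared the 19S with the 20S genes.

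Among the ATPases of the base, 5 of 6 rose on activation, and 4 under the other scaling (Psmc2 was lost). Psmc6 rose most of all 44 genes, from 920 and 880 in quiescent cells to 4266 and 3604 in activated cells, with 3604 and 3514 with miR-15a and 2866 and 2758 with the control. The quiescent libraries lay far below all others, and the control libraries below the activated and miR-15a ones. Activated cells were 4.34-fold higher, a log2 fold change of 2.12 ± 0.08 (adjusted p = 2.2e-07). Psmc6 rose by 0.34 ± 0.08 with miR-15a against the control (adjusted p = 0.020) and fell by 0.48 ± 0.08 in control against activated cells (adjusted p = 0.013). The first of these calls was lost without either miR-15a library or control library b (adjusted p up to 0.085) and the second without control library b (0.062). Psmc1 rose by 1.23, Psmc5 by 0.64, Psmc2 by 0.60 and Psmc3 by 0.51 on activation. With miR-15a these 4 were not called against the control, at 0.14, -0.20, -0.29 and 0.29; Psmc1 carries a seed match.

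Psmc4, the remaining ATPase, was low in activated cells alone. Its values were 560 and 596 in quiescent cells, 235 and 228 in activated cells, 592 and 560 with miR-15a and 522 and 513 with the control microRNA. The activated libraries lay below all others, the control libraries slightly below the quiescent and miR-15a ones, and those overlapped each other. It fell by 1.30 ± 0.07 on activation (adjusted p = 1.4e-06), was 1.30 ± 0.07 higher with miR-15a than in activated cells (adjusted p = 1.6e-05) and 1.14 ± 0.07 higher with the control than in activated cells (adjusted p = 0.00029). All 3 calls were kept under every alternative. Between miR-15a and the control it differed by 0.15 ± 0.07 (adjusted p = 0.15). The gene lies at chr7:28041707-28050101 on the minus strand, with no exon overlap with another gene and no 80-base window shared with one. The activated libraries also stand apart in Xist and Ddx3y, as given above, and the part of that difference was not tested.

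The other genes of the base are Psmd1 and Psmd2, large scaffold subunits, and Psmd4, a receptor for ubiquitin chains. Psmd1 rose by 0.996 and Psmd4 by 0.75 on activation, while Psmd2 was not called (0.07), though the other scaling gave -0.20 and a call of lower that only just met the threshold. Psmd4 rose by 0.56 ± 0.07 with miR-15a against the control (adjusted p = 0.00093), Psmd2 differed by 0.14 and Psmd1 by -0.23 (adjusted p = 0.089).

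In the lid 6 of 8 genes rose on activation and none fell on the deposited scale, while the other scaling left 5 higher and 2 lower (Psmd3 and Psmd11). Psmd14, the deubiquitinase that removes the ubiquitin chain, was at 499 and 531 in quiescent cells, 2106 and 2076 in activated cells, 1743 and 1772 with miR-15a and 1762 and 1694 with the control. It was 4.03-fold higher in activated cells, 2.01 ± 0.06 on the log2 scale (adjusted p = 4.8e-08). The miR-15a and control libraries overlapped, with a log2 fold change of 0.02 ± 0.06 (adjusted p = 0.78). Both lay below the activated ones, by -0.25 ± 0.06 (adjusted p = 0.013) and -0.27 ± 0.06 (adjusted p = 0.025), and each call was lost without either activated library, the former also without miR-15a library a and the latter without control library b (adjusted p up to 0.069 and 0.12). Psmd8, a structural subunit, was at 712 and 762, 2498 and 2420, 2758 and 2640, and 2063 and 1896. It rose by 1.73 ± 0.07 on activation (adjusted p = 2.1e-07) and by 0.45 ± 0.07 with miR-15a against the control (adjusted p = 0.0027). Its control libraries lay below its activated ones, and that decrease was lost without either activated library or control library b (adjusted p up to 0.12).

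The other lid genes split in their values with miR-15a. Psmd6 and Psmd13 were 0.37 and 0.48 higher than with the control. Against untreated activated cells they differed by -0.01 (not called) and 0.54 (called higher). On activation they rose by 1.35 and 0.75. Psmd13 carries a seed match, and 13.8% of its windows are shared with Sirt3. Psmd7, a partner of Psmd14, was at 185 and 191 in quiescent cells, 264 and 290 in activated cells, 206 and 300 with miR-15a and 362 and 368 with the control. Its miR-15a libraries were far from each other, and the control libraries were its highest. It fell by 0.54 ± 0.16 with miR-15a against the control (adjusted p = 0.040), a call lost when any library except miR-15a library b was left out (adjusted p up to 0.14). Psmd3 was at 577 and 596, 496 and 570, 483 and 663, and 652 and 777, and Psmd11 at 489 and 498, 350 and 416, 278 and 384, and 378 and 444. On the deposited scale neither was called in any of the 4 comparisons; the other scaling gave -0.42 (adjusted p = 0.041) and -0.64 (adjusted p = 0.0074) on activation, and both were called lower. For each the miR-15a and control libraries overlapped. Their log2 fold changes of -0.33 ± 0.16 and -0.32 ± 0.16 against the control had adjusted p-values of 0.16 and 0.18. Psmd12 rose by 0.87 on activation and was at -0.03 with miR-15a.

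Assembly chaperones rose for 3 of 7 on activation and for 1 of 7 with miR-15a against the control, and none fell on the deposited scale. That is 3 genes against 45.4% of all genes called higher on activation, and 1 against 14.4% with miR-15a. The other scaling left 1 higher (Psmd5) and 1 lower (Psmd9, -0.51) on activation. Psmd5, a chaperone of the base, was at 382 and 413 in quiescent cells, 1191 and 1234 in activated cells, 1198 and 1346 with miR-15a and 1024 and 916 with the control. The quiescent libraries were lowest, and the control ones lay below those with miR-15a. It rose by 1.60 ± 0.09 on activation (adjusted p = 1.3e-06) and by 0.39 ± 0.09 with miR-15a (adjusted p = 0.014). Psmd10 (gankyrin) and Psmg3 rose by 0.44 and 0.94 on activation. On the deposited scale Psmd9, Psmg1, Psmg2 and Psmg4 were not called in any comparison. Psmg4 was at 67 and 56, 62 and 48, 63 and 48, and 46 and 32, so its control libraries lay below all others and the other 3 groups overlapped. Psmg3 and Psmg4 are among the lowest of the 44 genes.

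Of the 4 alternative activators 1 rose and 2 fell on activation, and 1 rose and 2 fell with miR-15a against the control. The other scaling left 0 higher and 3 lower on activation, Psme4 among the latter, and 1 higher and 0 lower with miR-15a. Psme1 and Psme2 encode the alpha and beta subunits of PA28, a ring that opens the 20S gate without ATP and is linked to antigen presentation. Psme1 was at 744 and 634 in quiescent cells, 242 and 181 in activated cells, 426 and 476 with miR-15a and 260 and 255 with the control. Psme2 was at 470 and 468, 203 and 239, 350 and 386, and 192 and 320. Each was highest in quiescent cells, and with miR-15a each lay above the activated and control libraries. On activation Psme1 fell by 1.69 ± 0.15 (adjusted p = 1.9e-05), the lowest value of the 44, and Psme2 by 1.07 ± 0.21 (adjusted p = 0.0022). With miR-15a Psme1 rose by 0.79 ± 0.15 against the control (adjusted p = 0.0067), and Psme2 differed by 0.56 ± 0.21 (adjusted p = 0.088). Against activated cells they rose by 1.09 ± 0.15 (adjusted p = 0.0013) and 0.73 ± 0.21 (adjusted p = 0.032), the latter lost when any library but the control ones was left out (adjusted p up to 0.15). Of the windows of Psme2 50.3% occur in its copy Psme2b, which was at 24 to 171, so the split between them is uncertain. Interferon, macrophage and endothelial genes moved the same way, with the sums given above, and 8 of 8 genes of MHC class I presentation fell on activation. The same 8 rose with miR-15a against the control. Their part in Psme1 and Psme2 was not tested.

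Psme3 and Psme4 differed from that pair. Psme3 encodes PA28-gamma, a nuclear activator, and was at 492 and 470 in quiescent cells, 563 and 534 in activated cells, 446 and 420 with miR-15a and 504 and 542 with the control. Its miR-15a libraries were the lowest. It fell by 0.27 ± 0.07 with miR-15a against the control (adjusted p = 0.032) and by 0.34 ± 0.07 against activated cells (adjusted p = 0.011). The former call was lost without either activated library, either miR-15a library or control library b (adjusted p up to 0.14) and the latter without activated library a or miR-15a library b (up to 0.070). Of the 5 genes with a seed match, 1 (Psme3) was called lower with miR-15a against the control, 2 (Psmb1 and Psmd13) were called higher, and 2, Psmc1 among them, were not called. Its rise of 0.19 ± 0.07 on activation (adjusted p = 0.049) turned negative under the other scaling. Psme4 (PA200), a large single-chain activator, was at 1647 and 1730, 1810 and 1762, 1842 and 1647, and 2062 and 2002. The control libraries were highest and the other groups overlapped in part. It fell by 0.22 ± 0.07 with miR-15a against the control (adjusted p = 0.045), a call lost when any library except miR-15a library a was left out (adjusted p up to 0.18).

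The inhibitor Psmf1 (PI31) was at 105 and 134 in quiescent cells, 242 and 278 in activated cells, 202 and 187 with miR-15a and 222 and 211 with the control. The quiescent libraries were lowest, and those with miR-15a lay just below the control. It rose by 1.10 ± 0.14 on activation (adjusted p = 0.00016), and the fold change of -0.41 ± 0.14 between miR-15a and activated cells had an adjusted p of 0.050 and was not called.

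Genes that act with the proteasome were given as lists, whose counts stand against 45.4% of all genes called higher and 34.1% lower on activation, and 14.4% and 15.4% with miR-15a against the control. Of other subunits and assembly factors 7 of 11 were measured: 4 rose and 2 fell on activation, and 3 rose and 1 fell with miR-15a against the control. Pomp, the chaperone that matures the core, was at 660 and 584 in quiescent cells, 816 and 792 in activated cells, 978 and 1102 with miR-15a and 808 and 834 with the control, and Shfm1, a small 19S subunit, at 1118 and 978, 1772 and 1558, 2302 and 2302, and 1763 and 1794. Each rose on activation (0.37 and 0.67) and with miR-15a against the control (0.34 and 0.37), the rise of Pomp on activation being lost under the other scaling (0.09, adjusted p = 0.33). The increases with miR-15a were lost without miR-15a library b (adjusted p = 0.12 and 0.069) or either control library, and that of Shfm1 also without miR-15a library a. Of the 7 genes of the NRF1 pathway 2 rose and 3 fell on activation, and 1 rose and 3 fell with miR-15a. Nfe2l1 itself was at 1260 and 1346, 3047 and 3047, 2360 and 2865, and 3168 and 3446. It rose by 1.22 ± 0.10 on activation (adjusted p = 1.1e-05) and fell by 0.35 ± 0.10 with miR-15a against the control (adjusted p = 0.032), where 12 of the 15 20S genes rose. The fall was lost without either quiescent library, either activated library, miR-15a library a or control library b (adjusted p up to 0.14). Sel1l, of the degradation machinery of the endoplasmic reticulum, rose by 1.496 on activation and fell by 0.58 with miR-15a against the control.

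Of the deubiquitinases, 4 of 5 were measured, and 3 rose and none fell on activation, with 2 higher under the other scaling. Usp14, which trims ubiquitin chains at the 19S base, was at 670 and 670 in quiescent cells, 2758 and 2954 in activated cells, 1333 and 1842 with miR-15a and 2302 and 2108 with the control. It rose by 2.08 ± 0.14 on activation (adjusted p = 4e-06) and was 0.49 ± 0.14 lower with miR-15a than with the control (adjusted p = 0.033), a call lost when any library except miR-15a library b was left out (adjusted p up to 0.12). Of ubiquitin and E1 genes 5 of 8 rose and 2 fell on activation, and none rose and 1 (Uba6, -0.31) fell with miR-15a, a call lost without miR-15a library b or control library b (adjusted p up to 0.073). The other scaling left 4 of the 8 higher and 3 lower on activation. Of the shuttle receptors 7 of 8 were tested, with 3 higher and 4 lower on activation, and 2 higher and 1 lower with miR-15a; Zfand2a, a heat shock and arsenite inducible factor, fell by 1.93 on activation and rose by 0.72 with miR-15a.

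The 20S genes have short transcripts, and transcript length varied with the fold change. For miR-15a against the control, the Pearson correlation of log2 fold change with log2 transcript length was -0.45 over the 44 genes (Spearman -0.52) and -0.20 over 8386 genes with a mean of at least 100 (Spearman -0.35). For activation it was 0.25 and -0.12. The points share their libraries and are not independent, so no test is given. With the 44 genes split into 3 classes of length, the median log2 fold change with miR-15a was 0.42 from 555 to 1182 bases, 0.36 from 1183 to 1818 and 0.14 from 1819 to 6491. Other genes of those lengths with a mean of at least 100 had medians of 0.17, 0.13 and -0.04. The 44 genes were not held to that mean, so the sets differ in their filter. With miR-15a the proteasome medians lay above those of these other genes in each class. On activation they did not in the shortest class, at 0.27 against 0.93, and lay above in the others, at 0.60 against 0.49 and 0.51 against 0.13. The part of length in the 20S values was not tested.

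**Figure D5:**
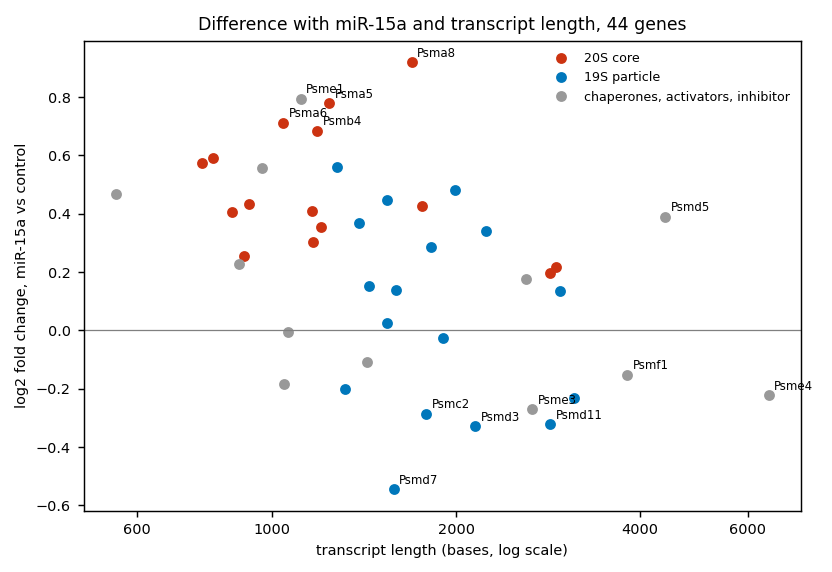
Each point is 1 of the 44 genes, with transcript length in bases on a log scale and the log2 fold change of miR-15a against the control microRNA; red points are the 20S core, blue the 19S particle and grey the chaperones, activators and inhibitor. The 15 red points all lie above 0, and Psmd7 is lowest at -0.54.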

How the data were processed

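RNA from 8 libraries was sequenced as single-end reads of 80 bases. The submitters' processing notes name STAR, Subread, featureCounts and mm10, without versions. The authors deposited a table of score values rather than raw counts, since 1 set of 910 distinct whole numbers, up to 125636, recurs in every library, as normalization across libraries would leave it. That step is not given in the sources used here, and depth is unknown.

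Genes that reached 10 in 2 or more libraries (13150) entered limma 3.58.1 in R 4.3.3 on log2(value + 5), with a trended prior, 4 group means and 4 residual degrees of freedom, and were called at an adjusted p (Benjamini-Hochberg) under 0.05. The pseudocount understates changes of low genes. Simulated data with known changes were used to check the procedure. Every table column was used. Proteasome genes and lists were chosen with earlier results of these data known. Values by library are given for the catalytic subunits, the activators and the 3 highest and 3 lowest fold changes of each comparison, and for Psmb1, Psmb4, Psmd5, Psme2b, Pomp, Shfm1 and Usp14 by choice after their values were seen. Pathway genes were up to 2 per list by the smallest p, with Psmb8, Psmb9, Psmb10 and Nfe2l1. Gene positions and lengths come from GENCODE M21, promoters and miR-15a from RefSeq. Windows of 80 bases were compared between transcripts to find shared sequence. Alternatives covered scaling, filter, pseudocount, samples in the fit, variance prior, replicate block, a fold limit and each library left out, where the lone library of a group is assumed to vary like the other groups. Setting fold changes against the median of all genes was added after seeing the data. Some items are not reported here.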

Additional observations from a re-analysis of the deposited data

How the results depend on the processing

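Of 90 calls on named genes the most were lost under a log2 fold limit of 0.5 (37), with only the 2 compared groups in the fit (22) and without activated library b (22). Pseudocounts of 1 and 20 cost 2 and 0 calls. Direction turned in 2 cases, both under median-ratio scaling on activation, Psmb6 at -0.0733 and Psme3 at -0.0893. That scaling gave 18 proteasome genes higher and 12 lower on activation (median 0.18), 0 lower with miR-15a against the control (median 0.33), 0 lower with miR-15a against activated cells (median 0.30), and 2 higher and 3 lower with the control against activated cells (median 0.13). Over all genes it turned the activation calls from 5968 higher and 4483 lower to 4749 and 5418. The fold limit left 8 higher and 1 lower with miR-15a against the control, 11 and 0 against activated cells, and 1 lower with the control against activated cells. Without the filter 1 gene was lower with miR-15a against the control; with only the compared groups 0 were, and 0 were lower with the control against activated cells; without the trend in the prior these counts were 0 and 2. Leaving out each library in turn gave medians of 0.42 to 0.52 on activation, 0.20 to 0.29 with miR-15a against the control and 0.16 to 0.27 against activated cells. With miR-15a against the control 0 to 4 genes were then lower, against activated cells 12 to 20 higher and 0 to 3 lower, and with the control against activated cells 1 to 3 higher and 0 to 7 lower. The replicate letters did not pair the libraries (correlations of the deviations between groups from -0.07 to 0.09); a replicate block gave 2 genes higher with the control against activated cells in place of 1, moved no other count by over 1.5 times and cost 5 calls. The cause of these changes was not tested. Depth is unknown, and 2 libraries a group limit the precision.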
